A study of Rattus norvegicus with 18 samples.

Results

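Shock-resistant rats were compared with control rats across the genes of the nucleus accumbens, a ventral striatal region that receives dopamine from the midbrain and takes part in reward and drug seeking. The comparison used 12 of the 18 arrays of the study, 6 from shock-resistant rats and 6 from controls, with 1 rat and 1 whole-transcript array each, chosen by the group named in the sample titles. The other 6 arrays, from shock-sensitive rats, entered the model through the shared estimate of the spread. All rats were male Sprague-Dawley animals weighing 350 to 400 g. The study profiled rats that took methamphetamine by self-administration and met footshock as the adverse consequence. In such experiments the animals called shock-resistant keep up their intake when shocked, whereas the shock-sensitive ones reduce it. What the controls received, the ages and the time of day of tissue collection were not stated in the labels. Rats were selected for the quality of their RNA, and the tissue was bulk accumbens, so fewer cells of a type and less RNA per cell cannot be told apart in any value below. Every one of 70580 features was read on each array, and 23446 of them named exactly 1 gene. With the brightest feature kept for each gene, 22093 genes were tested.

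Most neurons of the accumbens are medium spiny neurons, inhibitory projection cells that carry dopamine D1 or D2 receptors and make the opioid peptides dynorphin and enkephalin. Cells of this tissue also run a circadian clock, a feedback loop in which BMAL1 and CLOCK switch on the Per and Cry genes through DNA elements called E-boxes and PER and CRY proteins then hold BMAL1 and CLOCK in check. Another loop sets Bmal1 itself, through nuclear receptors of the ROR and REV-ERB families that bind ROR elements in its promoter. Clock gene RNA in rodents varies over the day.

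Arrays were alike in overall level, with medians of 5.39 to 5.53 on the log2 scale and correlations of 0.993 to 0.998 between pairs of arrays across features. The count of 6 arrays in each group sets the precision. The median of 1153 features named as negative controls on the array was 6.37, and 47.6% of genes had a mean below it. All 17 measured medium spiny neuron markers lay above that level, so the tissue carried the marks of striatum. Control replicate 1 stood apart with a marker mean of 11.86, against 13.13 to 13.68 in the other controls, and shock-resistant replicate 4 read 16.58 for Ttr, the transthyretin gene of the choroid plexus, where no other shock-resistant or control array exceeded 8.16. Where the difference of a named gene moved by over 1.5 times without either array, the value without it follows.

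Between shock-resistant rats and controls 4 genes passed limma's test at an adjusted p of 0.05, all of them higher, which is 0.0181% of the genes tested. An unadjusted (raw) p under 0.05 was found for 1595 genes higher (7.22%) and 928 genes lower (4.2%) in shock-resistant rats. When a difference of at least 1.3-fold was asked for as well, 81 genes remained on the higher side (0.367%) and 94 on the lower side (0.425%). After centring each array on its median these counts were 50 and 147. In 114 genes all 6 shock-resistant arrays lay above every control (0.516%), and in 38 genes all 6 lay below every control (0.172%). Of these, 12 of the higher and 32 of the lower genes had a mean at or above the negative control median. The median difference over all genes was 0.01.

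The direction of the differences followed the level of the gene. Among the 10520 genes below the negative control median, 1297 were higher (12.3%) and 131 lower (1.25%) at a raw p under 0.05, with a median difference of 0.047. Among the 11573 genes at or above it, 298 were higher (2.57%) and 797 lower (6.89%), with a median of −0.03. Quantile normalization, which gives every array the same distribution, brought the first split to 476 higher and 444 lower and the second to 384 and 510. Over all genes, 63.2% of those with an unadjusted p under 0.05 were higher in shock-resistant rats, against 47.4% after quantile normalization, 29.4% after centring each array on its median and 75% after centring on the negative controls. The share of genes on the higher side thus depended on the scaling, while the median of all genes moved by less than 0.1 on the log2 scale under each of these.

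**Figure D1:**
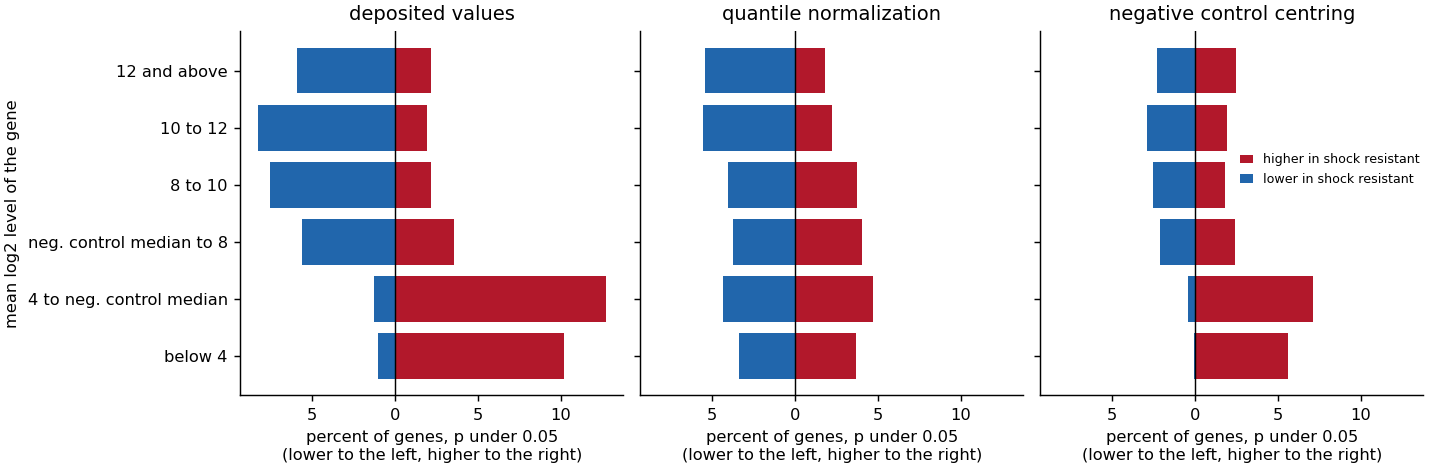
Percent of genes with an unadjusted limma p under 0.05 that were higher (right bars) or lower (left bars) in shock-resistant rats than in controls, by mean log2 level of the gene over all arrays, for the deposited values and for 2 other scalings. With the deposited values 12.7% of genes from 4 up to the negative control median were higher and 1.28% lower, and the sides were close to even for these dim genes after quantile normalization.

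Bmal1, the transcription factor that drives the clock together with CLOCK, was the single gene above the negative control median among the 4 that passed. It read 9.86 to 10.21 (median 9.97) in shock-resistant rats, against 9.20 to 9.76 (median 9.52) in controls. All 6 shock-resistant arrays lay above every control, by a margin of 0.11 between the groups. The difference was 0.53 ± 0.085 (SE, n = 6 each), or 1.44-fold (limma adjusted p = 0.0467). That call is a narrow one, since it was kept under 6 of 24 alternatives (adjusted p from 0.00537 to 0.312), while the difference itself stayed between 0.47 and 0.58.

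Promoter sequences of clock genes are shown here because the loops of the clock act through short elements in them. The sequences run 5′ to 3′ on the strand of the gene, from RefSeq on rat assembly GRCr8, with 1 the base just before the annotated start, and the capitals mark the motif. The Bmal1 window holds TAGGTCA, the core of a ROR element, and the Per2 window holds CACGTT, an E-box-like element known from the mouse gene. E-boxes with the letters CACGTG stand in the windows of Bhlhe40, Bhlhe41 and Nr1d1.
Bmal1, ROR element core, chr1:176766208-176766327 on the plus strand, bases 120 to 1 upstream: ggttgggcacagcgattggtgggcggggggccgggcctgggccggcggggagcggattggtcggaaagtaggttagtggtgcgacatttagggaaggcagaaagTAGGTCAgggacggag
Per2, E-box-like, chr9:99496994-99497113 on the minus strand, bases 120 to 1 upstream: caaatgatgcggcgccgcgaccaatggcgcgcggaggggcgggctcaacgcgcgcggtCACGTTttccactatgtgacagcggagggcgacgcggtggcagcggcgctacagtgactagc
Nr1d1, E-box, chr10:84229583-84229702 on the minus strand, bases 248 to 129 upstream: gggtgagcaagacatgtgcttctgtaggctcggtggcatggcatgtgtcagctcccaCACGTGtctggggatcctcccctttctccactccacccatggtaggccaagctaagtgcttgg
Bhlhe40, E-box, chr4:143174200-143174319 on the plus strand, bases 250 to 131 upstream: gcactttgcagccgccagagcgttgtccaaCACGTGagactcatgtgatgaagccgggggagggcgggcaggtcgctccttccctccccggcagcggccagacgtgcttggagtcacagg
Bhlhe41, E-box, chr4:180569356-180569475 on the minus strand, bases 120 to 1 upstream: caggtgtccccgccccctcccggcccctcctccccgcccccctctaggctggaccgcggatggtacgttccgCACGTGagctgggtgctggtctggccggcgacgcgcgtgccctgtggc
Over the 250 bases upstream of 33469 annotated starts, searched on both strands, CACGTG occurred in 5.59%, CACGTT in 4.07%, and TAGGTCA in 2.26%. Of the 15 measured clock genes with such a window, 3 held CACGTG, 4 held CACGTT and 1, Bmal1, held TAGGTCA. A clock gene was counted if any of its windows matched, whereas the percentages are per annotated start, so the counts and percentages are not directly comparable. A match is a description of the letters and does not show that a factor binds there.

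Other members of the clock list differed in both directions without passing over all genes. Of 17 measured members, Bmal1 alone passed the adjusted threshold, and at an unadjusted p under 0.05 2 were higher (11.8%) and 5 lower (29.4%). At that p 7.22% of all genes were higher and 4.2% lower. Among genes at or above the negative control median, where 16 members lay, 2.57% were higher and 6.89% lower. Bhlhe40, which encodes a repressor that competes for E-boxes, read 9.33 to 9.75 (median 9.56) in shock-resistant rats, against 9.63 to 10.20 (median 9.90) in controls. The groups overlapped, with 4 of 6 shock-resistant arrays below every control (−0.35 ± 0.083, SE, limma adjusted p = 0.265). Per2, a period gene that feeds back on BMAL1, read 7.63 to 7.97 (median 7.89) in shock-resistant rats and 7.89 to 8.43 (median 8.18) in controls. Its difference was −0.31 ± 0.087 (limma adjusted p = 0.273), with 2 of 6 arrays below every control. Per1 differed by −0.30 and Per3 by −0.32 (limma adjusted p = 0.335 and 0.409).

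The 2 REV-ERB genes of the other loop stood on opposite sides of the controls. Nr1d1, which encodes REV-ERB alpha, a repressor of Bmal1, read 9.34 to 9.65 (median 9.45) in shock-resistant rats and 9.02 to 9.36 (median 9.17) in controls. Nr1d2, which encodes the related REV-ERB beta, read 10.96 to 11.33 (median 11.17) in shock-resistant rats and 11.24 to 11.66 (median 11.41) in controls. Both pairs of groups overlapped, and neither difference passed (0.28 and −0.26, limma adjusted p = 0.362 and 0.347). The list as a whole had a median difference of −0.074, below the 0.01 of all genes, with 5 members higher and 12 lower. Among 13 clock output genes none passed, and the median was −0.032. At a raw p under 0.05, 1 was higher and 1 lower (7.69% each, against 7.22% and 4.2% of all genes). The lower one was Tsc22d3, a glucocorticoid-induced leucine zipper gene (−0.22, limma adjusted p = 0.397), and the higher one was Klf10, a zinc finger factor (0.21, limma adjusted p = 0.358), which lay below the negative control median.

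**Figure D2:**
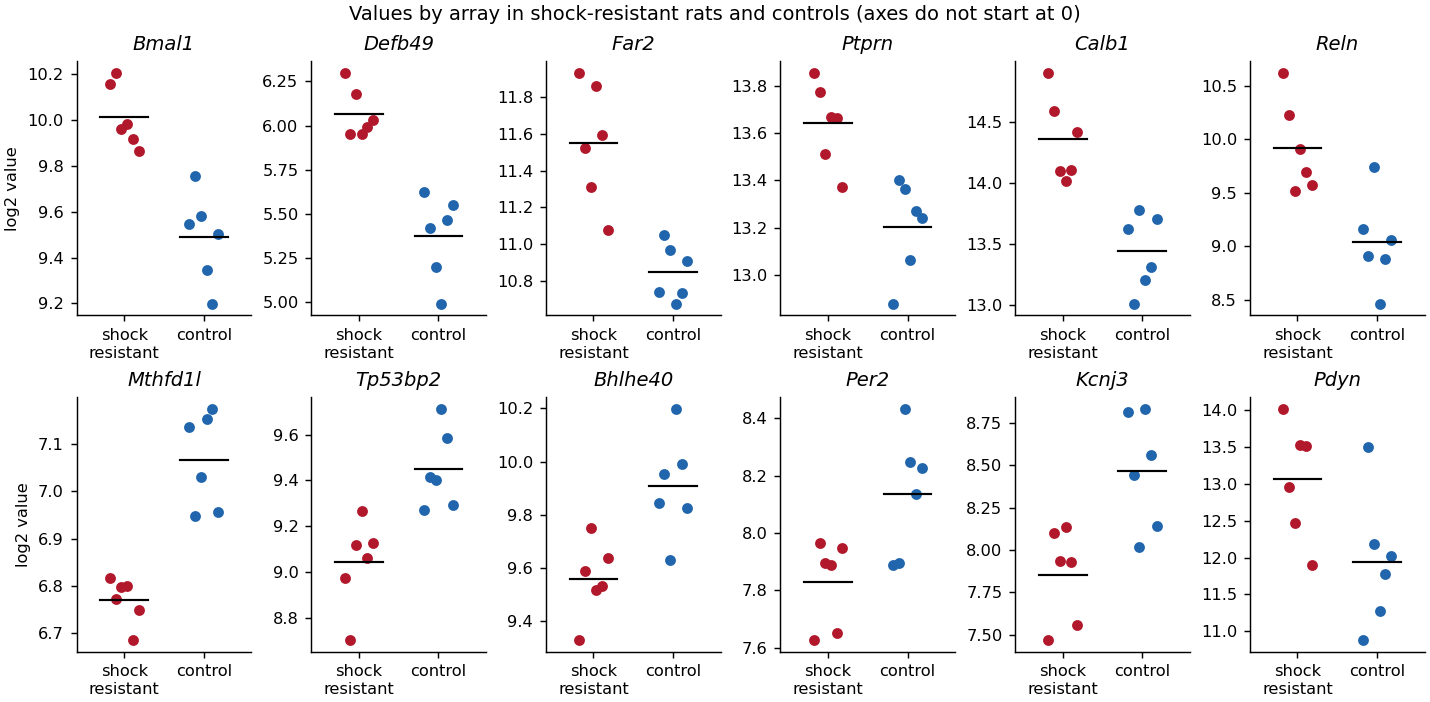
Log2 value of each array (points) with the group mean (line) for 12 genes, shock-resistant rats on the left and controls on the right of each panel. For Bmal1, Defb49, Far2, Calb1, Mthfd1l and, by a margin of 0.01, Tp53bp2 no shock-resistant array lies within the range of the controls.

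The other 3 genes that passed were dim. Defb49, a gene of the beta-defensin family of antimicrobial peptides, read 5.95 to 6.30 (median 6.01) in shock-resistant rats, against 4.99 to 5.63 (median 5.44) in controls. The groups did not overlap, and the difference was 0.69 ± 0.11 (SE, limma adjusted p = 0.0387). C1h16orf92 read 5.14 to 5.29 (median 5.23) in shock-resistant rats and 4.89 to 5.0 (median 4.94) in controls (0.29 ± 0.04, limma adjusted p = 0.0151). The provisional gene LOC102554555 read 5.47 to 5.64 (median 5.54) in shock-resistant rats and 5.05 to 5.28 (median 5.19) in controls (0.36 ± 0.051, limma adjusted p = 0.0151). All 3 genes had every shock-resistant array above every control, and every array of both groups below the negative control median of 6.37. After quantile normalization each of the 3 had a limma adjusted p of 0.0547, and no gene passed.

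Families that are hardly used in brain lay mostly among the dim genes, of which 12.3% were higher at a raw p under 0.05. Their members resemble each other in sequence, so the signals of single members may not be separable. Of 38 beta-defensin genes 12 were higher (31.6%) and 0 lower at a raw p under 0.05, with a median difference of 0.14, and Defb49 alone passed the adjusted threshold. Olfactory receptor genes, 1120 in number, gave 152 higher and 9 lower, a share of 13.6% higher that is near that of all dim genes (median 0.071), and none of them had a mean at or above the negative control median. Vomeronasal and trace amine receptor genes gave 25 higher and 1 lower of 158 (15.8% higher, median 0.081), and keratins with keratin-associated proteins 21 and 1 of 83 (25.3% higher, median 0.088). Quantile normalization left medians of 0.09, 0.021, 0.028 and 0.046 in that order. Averaged over the family, the level of olfactory receptor genes was 4.14 to 4.35 in shock-resistant arrays and 4.08 to 4.23 in control arrays, the highest being shock-resistant replicate 1. Without that array no gene passed limma's adjusted threshold, and 1065 genes were higher and 672 lower at a raw p under 0.05. The negative control features themselves had array medians of 6.30 to 6.48 in shock-resistant rats and 6.31 to 6.50 in controls.

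Zinc finger genes of the Zfp series, many of which encode transcriptional repressors, lay mostly above the negative control median. Of 301 measured, 5 were higher and 29 lower (9.63%) at a raw p under 0.05, and none passed. Their median was −0.032, and 235 of them lay at or above the negative control median, where 6.89% of all genes were lower and the median was −0.03. Zfp300 read 7.68 to 7.96 (median 7.81) in shock-resistant rats and 7.93 to 8.18 (median 8.10) in controls. Zfp717 read 10.09 to 10.44 (median 10.30) in shock-resistant rats and 10.43 to 10.60 (median 10.47) in controls. Their differences were −0.25 and −0.20 (limma adjusted p = 0.296 and 0.309), and most shock-resistant arrays, 4 and 5 of 6, lay below every control.

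Among genes at or above the negative control median and at least 1.2-fold higher, those with the smallest p after Bmal1 were Scgb1b24, Far2 and Ptprn. Far2, a fatty acyl-CoA reductase that makes fatty alcohols for waxes and ether lipids, read 11.08 to 11.93 (median 11.56) in shock-resistant rats, against 10.68 to 11.05 (median 10.82) in controls. No array of one group entered the range of the other (1.63-fold, 0.70 ± 0.13, SE, limma adjusted p = 0.0897). Ptprn, a membrane protein of dense-core vesicles that hold neuropeptides, read 13.37 to 13.86 (median 13.66) in shock-resistant rats and 12.88 to 13.40 (median 13.25) in controls. 1 shock-resistant array lay within the control range, and the difference did not pass (0.44 ± 0.092, limma adjusted p = 0.184). Scgb1b24, a secretoglobin, read 12.13 to 12.65 (median 12.33) in shock-resistant rats and 11.64 to 11.97 (median 11.80) in controls (0.55, limma adjusted p = 0.0897), without overlap.

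The other 8 of the 12 higher genes of smallest p had an adjusted p between 0.239 and 0.267. Reln, which encodes the extracellular glycoprotein reelin, read 9.52 to 10.62 (median 9.80) in shock-resistant rats and 8.46 to 9.74 (median 8.98) in controls (1.84-fold, 0.88 ± 0.20, SE, limma adjusted p = 0.239). Only 3 of 6 shock-resistant arrays exceeded every control. Fst, whose product follistatin binds and blocks activin, read 6.68 to 7.16 (median 6.93) in shock-resistant rats and 6.49 to 6.72 (median 6.60) in controls (0.30, limma adjusted p = 0.26). Pmepa1, a TGF-beta-induced gene that restrains SMAD signalling, read 10.45 to 11.36 (median 10.90) in shock-resistant rats and 9.16 to 10.61 (median 10.09) in controls, with 5 of 6 arrays above every control (0.83 ± 0.20, limma adjusted p = 0.265). Plcg1, the phospholipase C that acts below receptor tyrosine kinases, differed by 0.27 and Sorcs2, a sorting receptor that binds proneurotrophins, by 0.32 (limma adjusted p = 0.265 each). The remaining higher genes were Mir3065 (0.34) and the hair keratin-associated genes Krtap12-1 (0.31) and Krtap9-7 (0.45).

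On the lower side Mthfd1l had the smallest p. This mitochondrial enzyme of folate metabolism, which makes formate for purine synthesis, read 6.69 to 6.82 (median 6.79) in shock-resistant rats, against 6.95 to 7.17 (median 7.08) in controls. The groups did not overlap, and the difference was −0.30 ± 0.052 (SE, limma adjusted p = 0.0763). Tp53bp2, which encodes a p53-binding protein that promotes apoptosis, read 8.70 to 9.27 (median 9.09) in shock-resistant rats and 9.27 to 9.71 (median 9.41) in controls (−0.41 ± 0.084, limma adjusted p = 0.181), again without overlap. Rnf168, a ubiquitin ligase that marks histones at DNA breaks, read 8.38 to 8.72 (median 8.42) in shock-resistant rats and 8.67 to 8.89 (median 8.73) in controls (−0.28, limma adjusted p = 0.213). Neither the 20 measured genes of one-carbon metabolism nor the 21 of the DNA damage response followed as groups, with medians of −0.023 and −0.015. At a raw p under 0.05, 1 and 2 members were lower (5% and 9.52%). Lower at that p were 4.2% of all genes and 6.89% of those at or above the negative control median.

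Of the other lower genes, Ppfia2 and Shisa6 act at synapses. Ppfia2, which encodes the active zone scaffold liprin-alpha-2, read 10.93 to 11.39 (median 11.19) in shock-resistant rats and 11.19 to 11.69 (median 11.60) in controls (−0.37 ± 0.093, limma adjusted p = 0.265). Shisa6, an auxiliary protein of AMPA-type glutamate receptors, read 6.37 to 6.81 (median 6.57) in shock-resistant rats and 6.77 to 7.63 (median 7.20) in controls (−0.58 ± 0.15, limma adjusted p = 0.267). In both genes most shock-resistant arrays lay in or under the lower part of the control range, 3 and 4 of 6 below every control. Tmem196 read 9.09 to 10.08 (median 9.78) in shock-resistant rats and 10.07 to 10.79 (median 10.43) in controls (−0.74, limma adjusted p = 0.269). Ptcd2, which acts on mitochondrial RNA, differed by −0.28 and Pex11a, which acts in the division of peroxisomes, by −0.57 (limma adjusted p = 0.265 each). Bhlhe40, Hdac1l (−0.29), Cttnbp2nl (−0.27) and Tmem186 (−0.30) completed the 12 lower genes, none past the threshold. Hdac1l closely resembles Hdac1, which is described with the chromatin genes, and the array may not separate them.

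**Figure D3:**
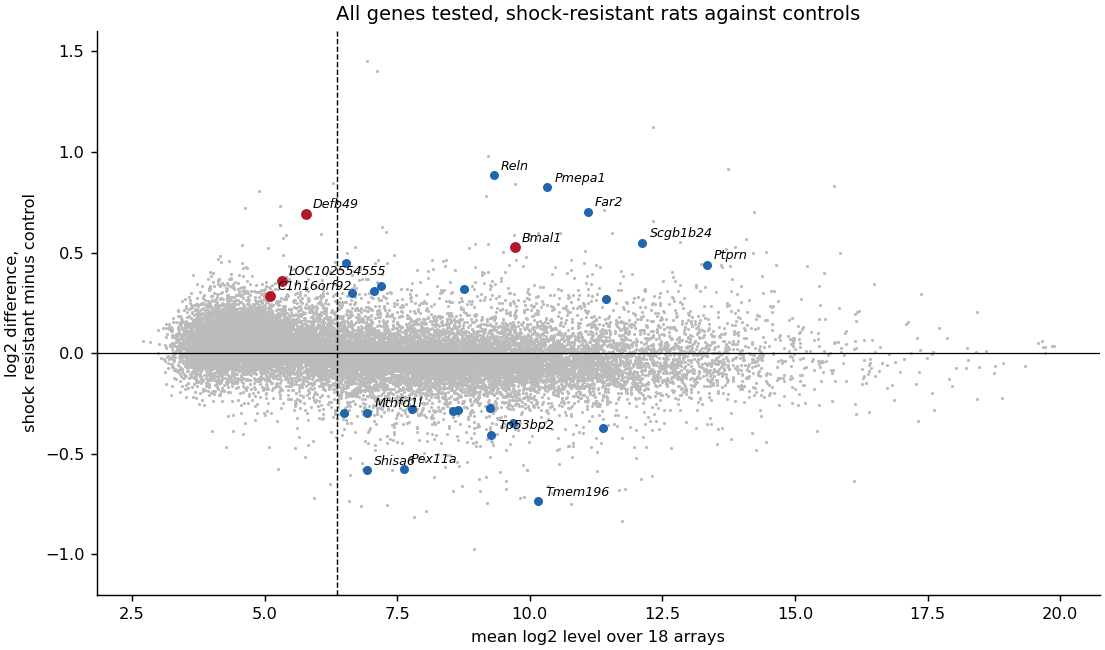
Log2 difference of shock-resistant rats minus controls against mean log2 level for all 22093 genes (grey), with the 4 genes past an adjusted p of 0.05 in red, the 24 genes chosen by smallest p at or above the negative control median in blue and the dashed line at that median. The grey cloud sits above 0 left of the dashed line and below 0 right of it, and the 3 dim genes that passed lie on the left.

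The study's title names the precursors of enkephalin and dynorphin, the opioid peptides of the projection neurons. Pdyn, the precursor of dynorphin, read 11.90 to 14.02 (median 13.24) in shock-resistant rats and 10.88 to 13.50 (median 11.90) in controls (2.18-fold, 1.13 ± 0.40, SE, limma adjusted p = 0.335). Its groups overlapped, with 3 of 6 shock-resistant arrays above every control. Penk, the enkephalin precursor of D2 neurons, read 15.16 to 16.14 (median 15.56) in shock-resistant rats and 14.43 to 15.85 (median 15.19) in controls (1.35-fold, 0.43 ± 0.22, limma adjusted p = 0.463), with 1 array above every control. Under the alternatives the difference lay between 0.80 and 1.44 for Pdyn and between 0.21 and 0.57 for Penk, and neither passed in any of them. Without control replicate 1 the difference was 0.29 for Penk and 0.91 for Pdyn. In shock-sensitive rats, set against the same controls, Pdyn differed by 0.026 and Penk by −0.21.

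Other large differences also came with a wide spread between rats. Calb1, which encodes the calcium buffer calbindin of medium spiny neurons in the striatal matrix, read 14.02 to 14.90 (median 14.26) in shock-resistant rats, against 13.01 to 13.78 (median 13.47) in controls, and did not overlap (1.88-fold, 0.91 ± 0.25, limma adjusted p = 0.269). Shock-sensitive rats, at 12.73 to 14.40 (median 13.37), spread over a wider range of Calb1 than either group. Nrgn, the calmodulin-binding protein neurogranin, differed by 0.83 and Dach1, a transcription factor, by 0.84 (limma adjusted p = 0.411 and 0.373), each with 1 array above every control. Ifi27, an interferon-induced gene, read 8.56 to 10.12 (median 9.63) in shock-resistant rats and 7.84 to 9.24 (median 8.59) in controls (0.98, limma adjusted p = 0.331).

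For Ttr and Asb15 a few arrays held most of the difference. Ttr read 5.84 to 16.58 (median 6.13) in shock-resistant rats and 5.81 to 8.16 (median 5.98) in controls, a difference of 1.40 that became −0.35 without shock-resistant replicate 4. The 12 choroid plexus markers had a median of 0.39 with that array and −0.071 without it. Asb15, a gene of a ubiquitin ligase adaptor, ranged from 4.73 to 10.22 among shock-resistant rats and from 4.64 to 9.22 among controls, so that its difference of 1.45 stayed within that spread (limma adjusted p = 0.64).

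On the lower side the largest differences were those of Nrp2, Gpr165, Tafa1, C1ql3, Car3, Kcnj6, Zic1 and Trpc4. Nrp2, the neuropilin-2 receptor for semaphorins and VEGF, read 7.39 to 9.04 (median 8.53) in shock-resistant rats and 8.64 to 9.75 (median 9.47) in controls (−0.97 ± 0.32, SE, limma adjusted p = 0.307). The groups overlapped, and 3 of 6 shock-resistant arrays lay below every control. Tafa1, a secreted chemokine-like protein of brain, read 6.28 to 8.24 (median 7.31) in shock-resistant rats and 7.50 to 9.42 (median 7.71) in controls (−0.81, limma adjusted p = 0.407). C1ql3, a secreted synaptic organiser, differed by −0.78 and Gpr165, an orphan receptor, by −0.84 (limma adjusted p = 0.445 and 0.448). Control replicate 4 was the highest control for C1ql3 at 10.37, and without it the C1ql3 difference was −0.38. Zic1, a transcription factor of septal and other ventral forebrain neurons, differed by −0.75, Trpc4, a cation channel, by −0.74, and Car3, a carbonic anhydrase, by −0.76 (limma adjusted p = 0.633, 0.552 and 0.64). Without control replicate 1 these 3 differences were −0.32, −0.39 and −0.39.

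Shock-sensitive rats were set against the same controls in the same model, and the values for the genes above are given side by side because they share those arrays. For Bmal1 the difference from controls was 0.53 for shock-resistant rats and 0.17 for shock-sensitive rats. Far2 gave 0.70 and 0.029, Ptprn 0.44 and −0.024, Reln 0.88 and −0.03, Pmepa1 0.83 and −0.016, and Calb1 0.91 and 0.0068. Fst gave 0.30 and −0.16, and Mthfd1l −0.30 and −0.082. The pairs of values were −0.35 and −0.33 for Bhlhe40, −0.30 and −0.27 for Tmem186, 0.69 and 0.51 for Defb49 and 0.55 and 0.40 for Scgb1b24. Since these genes were picked for their level in shock-resistant rats, no test between the methamphetamine groups is given for them.

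Markers of medium spiny neurons stood higher in shock-resistant rats without any of them passing. All 17 of 17 measured markers were higher, 0 had an unadjusted p under 0.05, and the median difference was 0.40. Their mean level per array was 13.19 to 13.95 in shock-resistant rats and 11.86 to 13.68 in controls. The lowest of the control values was replicate 1, and without that rat the median was 0.14. Separate lists for D1 (direct pathway) and D2 (indirect pathway) neurons were mixed, with 4 and 2 of 9 members lower. Their medians were 0.25 and 0.21, and 0.091 and 0.021 without control replicate 1. The lowest members differed by −0.31 and −0.24. At an unadjusted p under 0.05 the first list held 1 higher and 1 lower and the second 1 lower (11.1% each). Of all genes 7.22% were higher and 4.2% lower at that p. Gng7, a G protein subunit that couples dopamine and adenosine receptors, differed by 0.50, and Adcy5, the main striatal adenylyl cyclase, by 0.50 (limma adjusted p = 0.486 and 0.534). Without control replicate 1 these became 0.26 and 0.24.

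Genes of cyclic AMP signalling, which carries dopamine signals in these neurons, stood higher with the markers. Of 17 measured members 13 were higher, with a median of 0.26 that became −0.025 without control replicate 1. Pde7b, a phosphodiesterase that breaks down cyclic AMP, read 14.29 to 15.32 (median 14.66) in shock-resistant rats and 12.86 to 14.45 (median 14.25) in controls (0.70 ± 0.31, SE, limma adjusted p = 0.411), with 4 of 6 arrays above every control. Prkaca, a catalytic subunit of protein kinase A, stood lower (−0.28, limma adjusted p = 0.47). With the marker mean as a covariate the cyclic AMP list had a median of −0.063, and the count of genes past the threshold was 3. The part of the markers in the differences of other neuronal genes was not tested beyond this covariate.

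**Figure D4:**
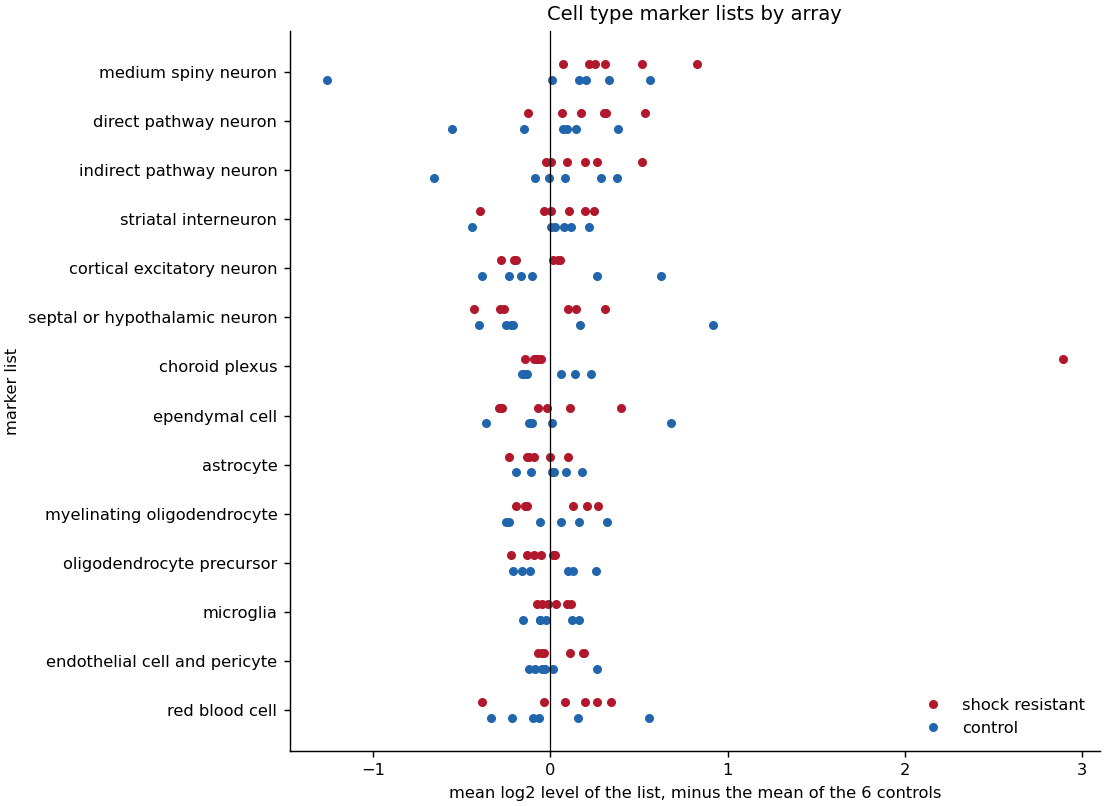
Mean log2 level of each cell type marker list in every array, as the difference from the mean of the 6 controls, with shock-resistant rats above controls in each pair of lines. Control replicate 1 is the lowest point of the medium spiny neuron list, and shock-resistant replicate 4 is the far point of the choroid plexus list.

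The lists of other cell markers had medians nearer to 0. The median was −0.067 for 14 astrocyte markers, −0.01 for 14 markers of myelinating oligodendrocytes, −0.071 for 12 of their precursors and −0.007 for 14 of microglia. It was 0.037 for 17 vessel markers, −0.008 for 13 interneuron markers, −0.074 for 17 markers of cortical excitatory neurons and −0.008 for 14 septal or hypothalamic ones. For 7 red cell and 8 ependymal markers it was 0.072 and −0.042. Without control replicate 1 the septal or hypothalamic median was 0.10, the ependymal one 0.092 and that of cortical excitatory neurons −0.12. Over these 10 lists and the choroid plexus list of 12 markers, 4 entries were higher and 4 lower at an unadjusted limma p under 0.05, and none passed. In single lists the share higher at that p ran from 0% to 8.33% and the share lower from 0% to 11.8%. Of all genes, 7.22% were higher and 4.2% lower at that p. Gja1, the connexin 43 of astrocyte gap junctions, differed by −0.18, Lhfpl3, a gene of oligodendrocyte precursors, by −0.33, and Cux2, a factor of upper cortical layers, by −0.29 (limma adjusted p = 0.362, 0.393 and 0.324). Higher members of the same lists were Bcan, of the precursor list, by 0.14 and Nrgn, of the cortical list, by 0.83 (limma adjusted p = 0.413 and 0.411). At an unadjusted p under 0.05 the precursor list held 1 member higher and 1 lower, and the cortical list 1 higher and 2 lower. Slc17a7, which loads glutamate into vesicles of cortical neurons, spanned 6.60 to 8.22 in shock-resistant rats and 6.34 to 10.54 in controls.

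Peptide genes gave mixed values. Among 8 opioid genes the median was 0.13, Pdyn was the single member with an unadjusted p under 0.05 (12.5%), and none passed. The dense-core vesicle list, 17 genes with a median of −0.072, held 3 higher members at an unadjusted p under 0.05, Ptprn, Pam and Vgf, and 1 lower, Cadps2. Its shares were 17.6% higher and 5.88% lower, against 7.22% and 4.2% of all genes. Among genes at or above the negative control median they were 2.57% and 6.89%. Pam, the enzyme that amidates peptides, read 13.16 to 13.83 (median 13.34) in shock-resistant rats and 12.96 to 13.27 (median 13.07) in controls (0.31, limma adjusted p = 0.347). Vgf, a secreted granin-like protein, differed by 0.38 and Cadps2, a priming factor of dense-core vesicles, by −0.54 (limma adjusted p = 0.423 and 0.433), and Cadps2 by −0.34 without control replicate 1. Of the other peptides Nmu, neuromedin U, and Cort, cortistatin, were 0.25 and 0.24 higher, both below the negative control median (limma adjusted p = 0.265 and 0.365).

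In the list of 22 serotonin and acetylcholine receptors, 13 members were lower and 9 higher. At an unadjusted p under 0.05, 4 were lower (18.2%, against 4.2% of all genes and 6.89% of those at or above the negative control median) and 0 higher, none passed, and the median was −0.11. Htr2a, the receptor through which classic hallucinogens act, read 9.20 to 9.86 (median 9.66) in shock-resistant rats and 9.51 to 10.23 (median 10.01) in controls. Htr4, a receptor that raises cyclic AMP, read 7.47 to 7.95 (median 7.72) in shock-resistant rats and 7.46 to 8.5 (median 8.30) in controls. The groups overlapped in both (−0.38 and −0.43, limma adjusted p = 0.358 and 0.355). Htr5a, a receptor of the same family, and Chrm3, a muscarinic receptor that activates phospholipase C, differed by −0.21 and −0.35 (limma adjusted p = 0.315 and 0.409).

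In the list of 10 GABA-A receptor subunits 7 were lower, none passed, and the median was −0.13. At an unadjusted p under 0.05, 2 were lower (20%) and 0 higher. Lower at that p were 4.2% of all genes and 6.89% of those at or above the negative control median, where all 10 lay. Gabra3, an alpha subunit, read 11.33 to 12.20 (median 11.89) in shock-resistant rats and 11.82 to 12.73 (median 12.20) in controls. Gabrb1, a beta subunit, read 12.92 to 13.60 (median 13.39) in shock-resistant rats and 13.24 to 13.96 (median 13.74) in controls (−0.47 and −0.38, limma adjusted p = 0.374 and 0.331). The groups overlapped in both genes.

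Of the 4 potassium channel genes that were lower at a raw p under 0.05, 3 encode inward rectifiers that G proteins open. Kcnj3, which encodes the GIRK1 subunit, read 7.47 to 8.14 (median 7.93) in shock-resistant rats and 8.02 to 8.83 (median 8.5) in controls, with 4 of 6 arrays below every control. Kcnj6, which encodes its partner GIRK2, read 6.06 to 7.22 (median 6.81) in shock-resistant rats and 6.97 to 8.70 (median 7.37) in controls, with 4 of 6 below. The differences were −0.61 ± 0.18 and −0.75 ± 0.31 (SE, limma adjusted p = 0.273 and 0.377). Kcnj9, the GIRK3 gene, and Kcnd3, an A-type channel gene, differed by −0.14 and −0.28 (limma adjusted p = 0.358 and 0.387). The mean of Kcnj9 lay below the negative control median. Over the 23 measured potassium channel genes the median was −0.011, 0 were higher at that p, and none passed. That median was −0.086 without control replicate 1. The 17.4% of members lower compares with 4.2% of all genes. Among those at or above the negative control median, where 22 members lay, 6.89% were lower.

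Calcium and sodium channels held 2 of 19 members higher at an unadjusted p under 0.05 (10.5%) and 0 lower. The share higher was 7.22% over all genes and 2.57% among those at or above the negative control median, where all 19 lay. Lower shares in these 2 sets were 4.2% and 6.89%. Cacna1i, a T-type calcium channel, read 9.76 to 10.48 (median 10.07) in shock-resistant rats and 9.11 to 10.04 (median 9.60) in controls. Cacna1a, the P/Q-type channel of nerve terminals, read 10.88 to 11.35 (median 11.09) in shock-resistant rats and 10.59 to 11.06 (median 10.88) in controls. Neither passed (0.46 and 0.27, limma adjusted p = 0.315 and 0.348), and the list's median of 0.055 became −0.041 without control replicate 1.

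Glutamate receptor genes at an unadjusted p under 0.05 were Grin2c, Grik1, Grm8 and Grm3, and none passed. The NMDA list held 1 of 7 higher (14.3%) and the AMPA and kainate list 1 of 10 lower (10%). The metabotropic list held 1 of 6 on each side (16.7%). At that p, 7.22% of all genes were higher and 4.2% lower. Among those at or above the negative control median the shares were 2.57% and 6.89%. Grin2c, an NMDA receptor subunit, read 8.56 to 9.24 (median 8.80) in shock-resistant rats and 8.01 to 8.71 (median 8.44) in controls (0.41 ± 0.11, SE, limma adjusted p = 0.269). Grik1, a kainate receptor subunit, differed by −0.52, Grm8, a presynaptic metabotropic receptor, by −0.35, and Grm3, another metabotropic receptor, by 0.21 (limma adjusted p = 0.369, 0.364 and 0.423). Medians were 0.074 over 7 NMDA subunits, 0.022 over 10 AMPA and kainate genes and −0.10 over 6 metabotropic receptors. Without control replicate 1 they were 0.006, −0.038 and −0.15, and the metabotropic median was −0.038 without shock-resistant replicate 4. At the nerve terminal Syt1, the calcium sensor of vesicle release, read 16.58 to 16.92 (median 16.72) in shock-resistant rats and 16.86 to 17.10 (median 16.94) in controls (−0.23, limma adjusted p = 0.267), with 5 of 6 arrays below every control. Unc13a, which primes vesicles, stood higher (0.21, limma adjusted p = 0.4). Of 17 active zone genes 13 were lower and 4 higher, with a median of −0.075. At an unadjusted p under 0.05, 2 were lower (11.8%) and 1 higher (5.88%). All 17 lay at or above the negative control median, where 6.89% of genes were lower and 2.57% higher, with a median of −0.03.

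Immediate early genes are those that neuronal activity switches on within minutes. Among 16 transcription factors of this kind 12 were lower, none passed, and the median was −0.12. At an unadjusted p under 0.05, 2 were lower (12.5%) and 0 higher. Lower at that p were 4.2% of all genes and 6.89% of those at or above the negative control median, where 11 members lay. Control replicate 2 had the highest mean of this list among the controls, and without it the median was −0.032. Jun read 6.28 to 7.07 (median 6.72) in shock-resistant rats and 6.69 to 7.78 (median 6.94) in controls (−0.44, limma adjusted p = 0.413). Fos read 6.11 to 7.14 (median 6.89) in shock-resistant rats and 6.28 to 8.62 (median 7.15) in controls (−0.57, limma adjusted p = 0.502). The groups overlapped in both genes, and without control replicate 2 the Fos difference was −0.30. Jund, another AP-1 subunit, differed by −0.20 (limma adjusted p = 0.365). The effectors of activity were mixed, with 12 of 18 higher. Sik2, a kinase that holds back CREB coactivators, was the member with the smallest p on the higher side (0.23, limma adjusted p = 0.296) and Dusp4, a phosphatase of MAP kinases below the negative control median, on the lower side (−0.23, limma adjusted p = 0.335).

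In the interferon list 18 of 22 members were higher, and 8 had a mean at or above the negative control median. At an unadjusted p under 0.05, 5 members were higher (22.7%) and 1 lower, where 7.22% of all genes and 12.3% of those below the negative control median were higher. Bst2, a restriction factor known as tetherin, read 8.01 to 8.30 (median 8.11) in shock-resistant rats and 7.71 to 8.02 (median 7.83) in controls. Ifitm3, which keeps viruses from entering the cytosol, read 6.29 to 7.05 (median 6.41) in shock-resistant rats and 6.21 to 6.42 (median 6.35) in controls. The groups overlapped in both, and neither passed (0.25 and 0.25, limma adjusted p = 0.326 and 0.424). Without shock-resistant replicate 4 the Ifitm3 difference was 0.16. The median of the list was 0.093, and its members ran from −0.57 to 0.27, with 4 of 22 lower. The member lower at an unadjusted p under 0.05 (4.55% of the list, against 4.2% of all genes) is not named here.

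Chromatin genes differed by small steps. Mbd2, a reader of methylated DNA, read 12.58 to 12.69 (median 12.63) in shock-resistant rats and 12.69 to 12.90 (median 12.87) in controls. Hdac1, a histone deacetylase, read 10.01 to 10.42 (median 10.32) in shock-resistant rats and 10.42 to 10.61 (median 10.52) in controls. Their differences were −0.19 and −0.26 (limma adjusted p = 0.269 and 0.296). Dnmt1, the maintenance DNA methyltransferase, differed by −0.13, and Hdac10, a polyamine deacetylase, by 0.19 (limma adjusted p = 0.296 and 0.269). The median was −0.045 over 15 DNA methylation genes and −0.024 over 16 deacetylases.

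Metabolic and housekeeping groups lay close to the median of all genes. Small list medians carry no direction here, since 14 of all 53 lists, each with a median of at most 0.037 in size, changed sign under quantile normalization or either centring. The list median was −0.015 for 32 genes of oxidative phosphorylation, 0.033 for 73 ribosomal protein genes, −0.028 for 39 proteasome genes and −0.018 for 16 genes of cholesterol synthesis. Peroxisomal and fatty acyl genes gave −0.024, mitochondrial translation genes −0.052, thioredoxin system genes 0.004 and heat shock genes 0.017. Txnrd1, the cytosolic thioredoxin reductase, differed by −0.17, Tfb1m, a methyltransferase of mitochondrial ribosomal RNA, by −0.28, and Cryab, a small heat shock protein, by −0.36 (limma adjusted p = 0.265, 0.362 and 0.42). Stress hormone genes had a median of −0.064 over 16 members, neurotrophic factor genes 0.003 over 20, dopamine genes 0.026 over 13 and reelin pathway genes other than Reln differed by no more than 0.13 in size.

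**Figure D5:**
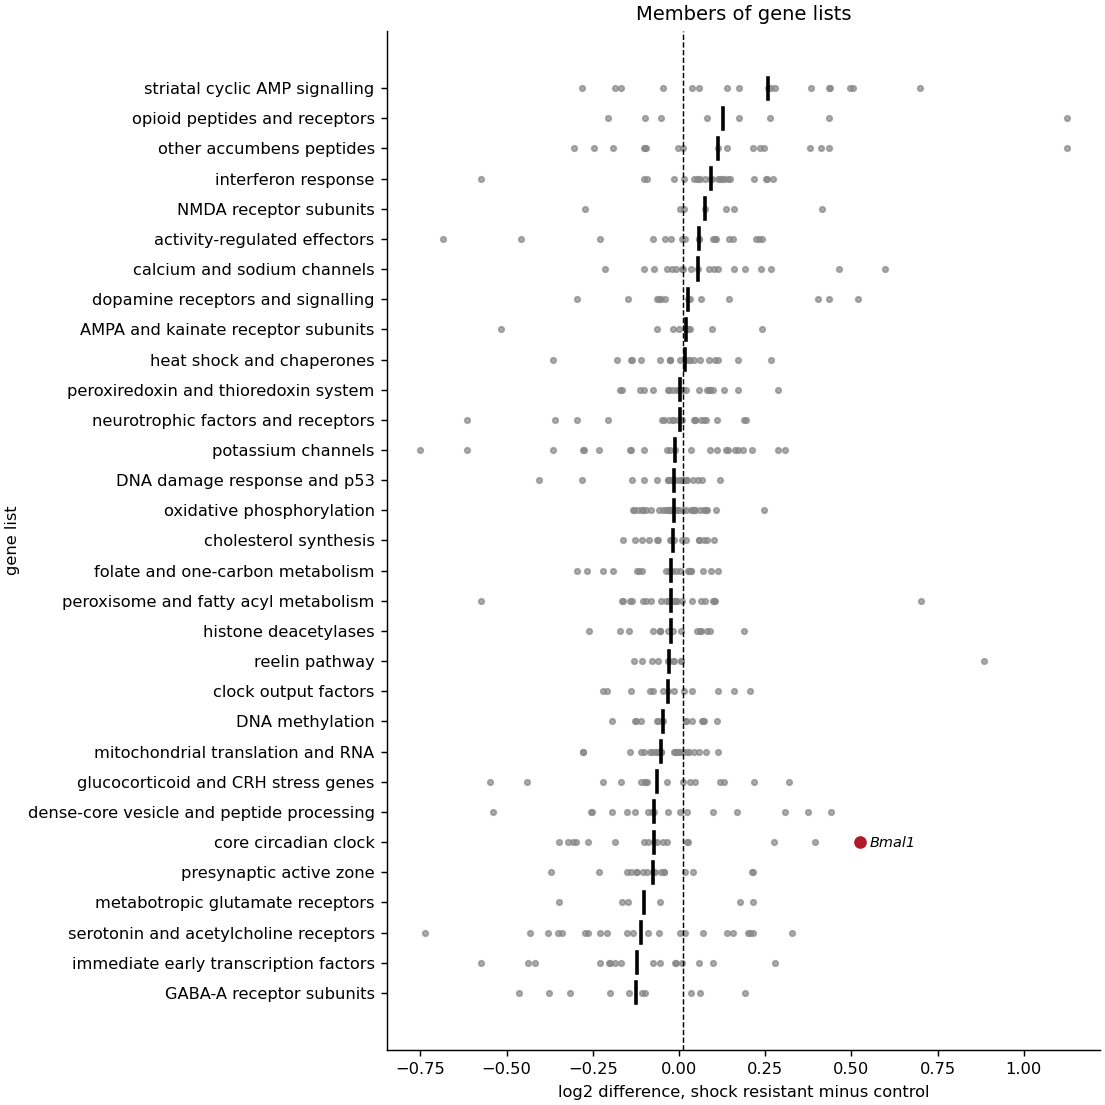
Log2 difference of shock-resistant rats minus controls for every measured member (points) of the gene lists, with the median of each list (bar) and of all genes (dashed line). Bmal1 is marked in red as the single member of these lists past the adjusted threshold that also lies above the negative control median.

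MicroRNA genes were read through their precursor transcripts, so the values say nothing direct of mature microRNAs. Of 351 such genes 53 were higher (15.1%, against 7.22% of all genes and 12.3% of those below the negative control median) and 17 lower (4.84%) at a raw p under 0.05, 94 had a mean at or above the negative control median, and none passed. The sequences of the mature products of the genes with the smallest p are shown with the seed, bases 2 to 8, in capitals, since the seed decides which messages a microRNA can pair with. They come from RefSeq on assembly GRCr8 and show 7 different seeds. For Mir219a1 only the 3p product was available there, so its 5p product and seed are not shown.
rno-miR-3065-5p, chr10:105796345-105796364 on the plus strand: uCAACAAAaucacugaugcu
rno-miR-3065-3p, chr10:105796384-105796407 on the plus strand: uCAGCACCaggauauuguugggga
rno-miR-200c-3p, chr4:159209969-159209989 on the minus strand: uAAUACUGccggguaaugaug
rno-miR-200c-5p, chr4:159210009-159210029 on the minus strand: cGUCUUACccagcaguguuug
rno-miR-219a-1-3p, chr20:4831641-4831662 on the plus strand: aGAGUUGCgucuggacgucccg
rno-miR-106b-3p, chr12:22157062-22157083 on the minus strand: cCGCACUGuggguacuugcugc
rno-miR-106b-5p, chr12:22157103-22157123 on the minus strand: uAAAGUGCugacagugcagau
Mir3065 read 7.15 to 7.63 (median 7.37) in shock-resistant rats and 6.91 to 7.14 (median 7.04) in controls, without overlap (0.34 ± 0.077, SE, limma adjusted p = 0.239). Mir200c read 4.0 to 4.31 (median 4.13) in shock-resistant rats and 3.66 to 4.07 (median 3.77) in controls. Mir219a1, whose family takes part in oligodendrocyte maturation, differed by 0.25, Mir106b by 0.31 and Mir200c by 0.33 (limma adjusted p = 0.265, 0.265 and 0.26), and the means of these 3 lay below the negative control median.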

How the data were processed

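RNA from the nucleus accumbens of 18 rats was read on Affymetrix whole-transcript arrays, 6 per group. The deposited values were taken to be log2 from their range of 2.06 to 19.93. Per the submitters' processing notes, Affymetrix Expression Console made them, with version and normalization unstated in the sources used here. Array medians lie between 5.39 and 5.53.

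Of 70580 features, 1738 were controls, 23446 named 1 gene, 505 named several and 44891 named none. Symbols were updated by gene number through the RefSeq table of GRCr8, which matched 22077 features. The feature with the highest mean stood for each of 22093 genes. The deposited log2 values were fitted with limma 3.58.1 in R 4.3.3 over all 18 arrays with group as the only term, which was tested on simulated data, and p-values were adjusted by Benjamini-Hochberg over all genes. Tables and figures were made with Python 3.11.15. The labels say that replicates are separate rats.

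Named genes were those past an adjusted p of 0.05. Beside them stood, among genes at or above the negative control median without provisional symbols, the 12 higher and 12 lower genes of smallest p and at least 1.2-fold, and the 8 higher and 8 lower genes of largest difference. Up to 4 members of smallest p were drawn from each of 53 lists, some left unnamed. Outside this rule, Per3, Nr1d1, Nr1d2, Ifitm3 and Slc17a7 were named after their values were seen. The members and lists were chosen with earlier results of these data known. Of 24 alternatives, 2 were added after seeing the data, namely centring on the negative controls and leaving out control replicate 1 with shock-resistant replicate 4.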

Additional observations from a re-analysis of the deposited data

Results flagged for a closer look

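In 99 named genes and the 53 list means, 304 groups of 6 arrays were searched for an outlying highest or lowest array. In 30 groups its gap to the nearest neighbour took up more of the range than Dixon's critical value for 6 samples allows. Chance gives about 1 in 20 of such groups. Values are log2 levels, and for lists the mean of the members.

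Shock-resistant replicate 4 stood highest for Ttr at 16.58 and for the choroid plexus list at 8.3, while the other 5 shock-resistant arrays lay between 5.84 and 6.38 and between 5.27 and 5.36. It was also the highest for the glucocorticoid and CRH stress genes at 8.79. Shock-resistant replicate 1 was the lowest for Cux2 at 6.45 and the highest for cyclic AMP signalling at 13.62, and shock-resistant replicate 6 was the lowest for serotonin and acetylcholine receptors at 7.57.

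Control replicate 1 was the lowest control for the medium spiny neuron list at 11.86, cyclic AMP signalling at 12.22, calcium and sodium channels at 10.65, potassium channels at 10.01, NMDA receptor subunits at 9.23 and striatal interneurons at 7.38. The same array was lowest for the core circadian clock at 9.53 and for clock output factors at 7.64, and for the single genes Adcy5 at 13.07 and Unc13a at 10.36. It was the highest control for ependymal markers at 7.05, beta-defensins at 4.89, Cadps2 at 9.74, Grik1 at 8.74 and Txnrd1 at 9.79.

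Control replicate 2 was the highest for opioid genes at 9.3, immediate early transcription factors at 7.72 and other accumbens peptides at 8.42, and the lowest for Mir106b at 4.63. Control replicate 3 was the lowest for Ppfia2 at 11.19 and for keratins at 5.18 and the highest for endothelial and pericyte markers at 9.03. Control replicate 4 was the highest for C1ql3 at 10.37 and the lowest for Krtap9-7 at 5.9.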

How the results depend on the processing

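The 4 genes past an adjusted limma p of 0.05 became 9 with array weights and 2 with the replicate block, and leaving out 1 array at a time gave 0 to 7. No gene passed after quantile normalization, after centring on the negative controls, among genes at or above the negative control median, with shock-resistant and control arrays alone, over all features, or without control replicate 1 and shock-resistant replicate 4, where 860, 967, 282, 1549, 5197 and 1947 were higher and 954, 323, 756, 943, 2398 and 1024 lower at an unadjusted p under 0.05. None passed without shock-resistant replicate 1 (1065 higher and 672 lower at that p), 1 without shock-resistant replicate 5 or control replicate 4, 2 without control replicate 3 and 7 without control replicate 2. C1h16orf92 kept its call in 16 of 23 alternatives, LOC102554555 in 14 of 23, Defb49 in 8 of 23 and Bmal1 in 6 of 24. Far2 passed in 2, Mthfd1l in 3 and Scgb1b24 in 1.

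Of genes at an unadjusted p under 0.05 and at least 1.3-fold, the 81 higher became 50 with median centring, 53 at or above the negative control median, 519 over all features, 309 at 1.2-fold, 21 at 1.5-fold and 53 to 108 with 1 array left out. The 94 lower became 147 with median centring, 57 with array weights, 349 over all features, 256 at 1.2-fold, 16 at 1.5-fold and 52 to 149 with 1 array left out. More features were tested in the all-features setting, and the cause of the other moves was not tested. The Ttr log2 difference lay between −0.347 without shock-resistant replicate 4 and 1.8 without shock-resistant replicate 5, and was −0.273 without shock-resistant replicate 4 and control replicate 1. The Slc17a7 log2 difference lay between −0.846 without those 2 arrays and 0.15 without control replicate 4. Of 53 list medians 28 changed sign under at least 1 alternative.

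Replicate numbers were not used as pairs in the main fit. Arrays of the same number correlated at −0.31 to 0.25 in their deviations from the group means, which cannot exclude shared handling by number. The replicate block gave 76 higher and 88 lower genes at an unadjusted p under 0.05 and 1.3-fold. With that block Bmal1 and Scgb1b24 passed (limma adjusted p = 0.00537 and 0.0136), while C1h16orf92, LOC102554555 and Defb49 did not. The number of arrays and, for the 47.6% of genes below the negative control median, signal near background limit what can be detected.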
